A study of Rattus norvegicus with 6 samples.

Results

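Genes of the cytosolic lipid droplet were examined in rat liver, 10 in all: the perilipin coat genes Plin2, Plin3, Plin4 and Plin5, the CIDE genes Cidea, Cideb and Cidec, the lipases Pnpla2 and Mgll, and G0s2, the inhibitor of Pnpla2. They are the rows of the deposited expression table that carry these symbols. All 10 were found, 1 row each, among 25926 features, and 9 of them reached a mean of 1 FPKM over the 6 samples (fragments per length of transcript and per mapped fragments of the sample). Plin4 did not. The samples were livers of Sprague-Dawley rats labelled as 4 weeks old. The 3 control rats received 0.9% saline and carried the label normal. The 3 others received total parenteral nutrition (TPN, nutrients infused into a vein) for 7 days and carried the label PNALD, parenteral nutrition-associated liver disease. The diet of the controls was not given in the sources used here. Labels name no further treatment, allele or transgene in either group. The comparison asks which liver transcripts differed between the groups.

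Lipid droplets hold triglyceride and sterol ester under a single layer of phospholipid, and hepatocytes fill with them in fatty liver, a known feature of liver injury during parenteral feeding. Perilipins coat the droplet and control the access of lipases. CIDE proteins sit where droplets touch and pass lipid from the smaller to the larger, and Cideb also takes part in loading lipid onto very low density lipoproteins. Pnpla2 (adipose triglyceride lipase) makes the first cut in triglyceride, and Mgll (monoacylglycerol lipase) the last. G0s2 binds Pnpla2 and blocks it. Several of these genes are targets of the nuclear receptors PPAR-alpha and PPAR-gamma in liver.

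G0s2 and Plin3 were the only members whose values did not overlap between the groups. Of all features averaging 1 FPKM or more, 17.1% did not overlap. For these 2 members the 250 bases before the annotated transcription start are shown, read 5′ to 3′ on the gene's strand, from RefSeq on build GRCr8. Capitals mark GGGCGG (the core of a GC box), CCAAT or TATAA on either strand, so that CCGCCC and ATTGG are also in capitals.
G0s2, minus strand, chr13:107335949-107336198: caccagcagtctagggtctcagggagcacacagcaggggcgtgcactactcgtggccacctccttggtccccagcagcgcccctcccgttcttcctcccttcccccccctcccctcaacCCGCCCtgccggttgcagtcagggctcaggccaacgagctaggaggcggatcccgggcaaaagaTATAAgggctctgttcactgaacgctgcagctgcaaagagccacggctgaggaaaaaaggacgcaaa
Plin3, minus strand, chr9:1210213-1210462: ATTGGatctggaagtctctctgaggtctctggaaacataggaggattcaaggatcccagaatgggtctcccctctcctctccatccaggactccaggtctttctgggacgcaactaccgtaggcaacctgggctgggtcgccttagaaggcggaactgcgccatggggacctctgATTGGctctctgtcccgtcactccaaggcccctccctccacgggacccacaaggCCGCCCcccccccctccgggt

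The G0s2 window held 1 GGGCGG and 1 TATAA, the latter from base 67 to base 63 before the start. The Plin3 window held 2 CCAAT and 1 GGGCGG and no TATAA. All 10 members had a window, 15 in all because Plin2 and Plin4 have several starts. Among them 8 genes held GGGCGG, 3 held CCAAT, 2 (G0s2 and Plin5) held TATAA, and 2 (Plin2 and Mgll) held CACGTG, an E-box. These motifs stood in 30.5%, 34%, 24% and 5.59% of all 33469 windows of the same length. Those are shares of single windows, whereas a member counted if any of its windows held the motif. AGGTCA, the half-site that PPARs and other nuclear receptors bind, stood once in the Plin5 window, in no other member's window, and in 14.1% of all windows. A match of letters is a description and not a measured site. In the RefSeq gene table of GRCr8, Plin4 and Plin5 are neighbours on chromosome 9, and Plin3 lies on the same chromosome. G0s2 on chromosome 13 lies between Hsd11b1 and Lamb3.

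Sums of FPKM ran from 509630.0 to 544670.0 over the samples, and 11129 to 11424 features reached 1 FPKM in each. Steps of whole reads were not seen in the low values, so the depth of the libraries is unknown. All 11362 features averaging 1 FPKM or more were tested with limma on log2(FPKM + 1), with p-values adjusted over all of them, and 28 (0.246%) passed an adjusted p under 0.05. None of the 9 tested members passed. At an unadjusted p under 0.05 there were 2 members, G0s2 and Plin3, where 11.4% of all features reached it. These 2 were also the members without overlap between the groups, 1 higher and 1 lower in TPN, against a share of 17.1% over all features. The members' median log2 fold change was 0.23, and that of all features 0.01. The share of members that stood apart was therefore close to the share among all features.

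**Figure D1:**
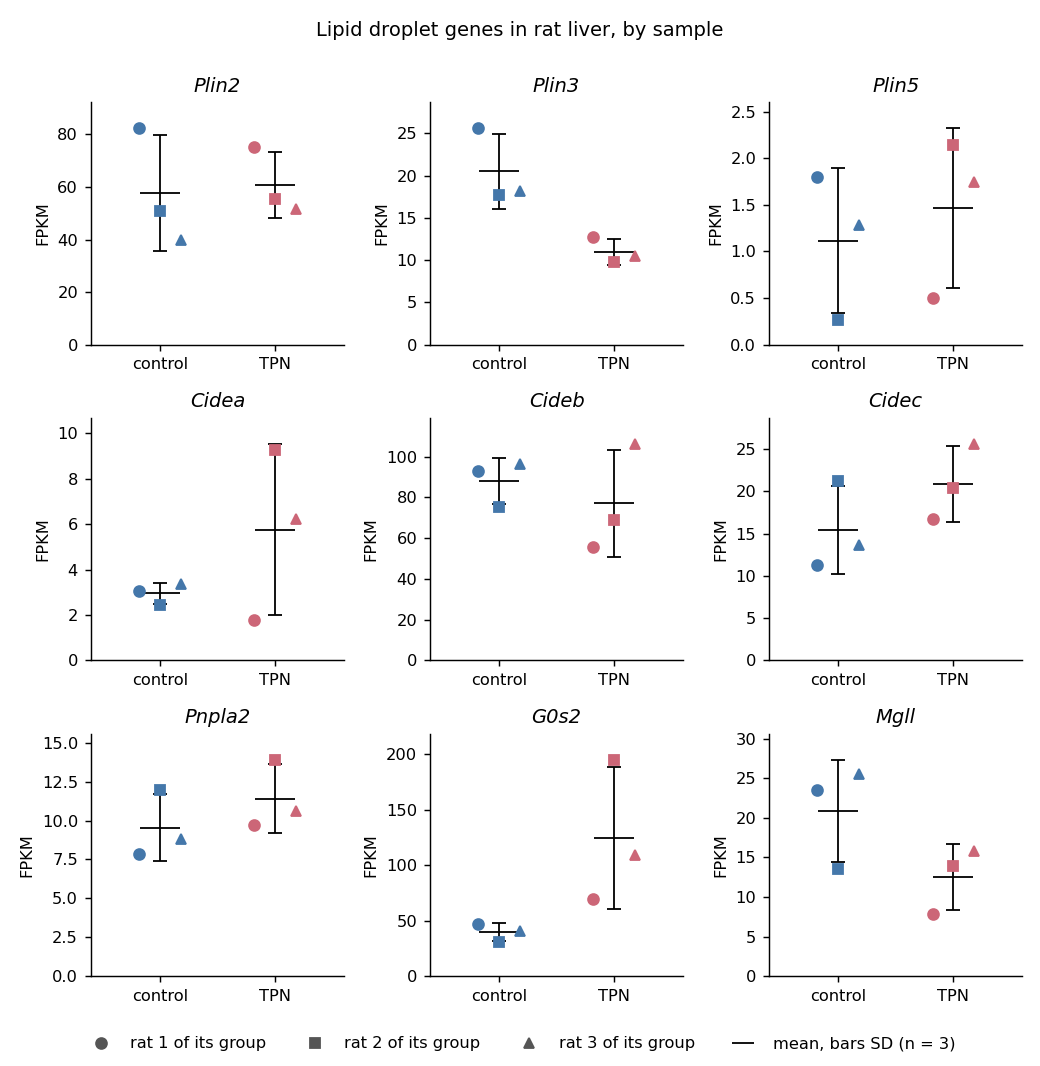
FPKM of the 9 tested members (vertical axes, linear and from 0, each gene on its own scale) in the 3 control and 3 TPN rats; symbols give the rat's number, and horizontal lines and bars give the group mean and SD. G0s2 lies between 31.3 and 46.9 in control and between 69.6 and 195 in TPN, Plin3 between 17.7 and 25.6 in control and between 9.79 and 12.7 in TPN, and the other panels overlap.

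Among the coat genes, Plin2, the main perilipin of hepatocytes, was the most abundant. It measured 82.3, 50.8 and 39.9 FPKM in control 1, 2 and 3 and 75.3, 55.5 and 51.7 FPKM in TPN 1, 2 and 3. The TPN rats all lay inside the range of the controls. The group means were 57.7 ± 22.02 and 60.8 ± 12.7 FPKM (SD, n = 3), a log2 fold change of 0.12 with a 95% interval from -0.55 to 0.79 (limma adjusted p = 0.921). Its sign turned without control 3 (-0.11) and without TPN 1 (-0.04).

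Plin3, a perilipin that moves from the cytosol onto newly formed droplets, was lower in TPN. The values were 25.6, 17.7 and 18.2 FPKM in the controls and 12.7, 9.79 and 10.5 FPKM in the TPN rats. Every TPN rat lay below every control. The means were 20.5 ± 4.42 and 10.98 ± 1.51 FPKM (SD, n = 3), 1.87-fold higher in control. Its log2 fold change was -0.83 (SE 0.19, 95% interval -1.28 to -0.39, unadjusted p = 0.00269), and limma's adjusted p of 0.18 over all features did not pass. Across the 19 alternatives the log2 fold change of Plin3 ran from -1.02 to -0.67. In bulk liver, fewer cells of a type and less RNA per cell cannot be told apart.

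Plin5, which ties droplets to mitochondria in tissues that burn fat, was scarce. It measured 1.80, 0.263 and 1.29 FPKM in the controls and 0.501, 2.14 and 1.75 FPKM in the TPN rats. The spread inside each group was wider than the gap between the group means, and control 2 and TPN 1 were the low rats. The log2 fold change of Plin5 was 0.23 (95% interval -0.65 to 1.11, limma adjusted p = 0.875) and turned to -0.11 without control 2. Plin4, a perilipin known from fat and muscle, was listed at 0 in 4 of the 6 samples and at 0.0361 FPKM in control 1 and 0.0533 FPKM in TPN 2. It was not tested.

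Plin2 made up 75.01%, 73.9% and 67.2% of the summed perilipin FPKM in the controls and 85.1%, 82.2% and 80.9% in the TPN rats. The share of Plin3 was 23.3%, 25.7% and 30.6% in the controls and 14.3%, 14.5% and 16.4% in the TPN rats. Neither share overlapped between the groups, and because both are parts of 1 total they do not give separate evidence. The summed perilipins themselves overlapped, at 79.3 ± 26.8 FPKM in control against 73.3 ± 13.3 in TPN (SD, n = 3). The shares restate the values of Plin3 and Plin2 above and were not tested.

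Of the CIDE genes, Cideb was by far the most abundant in both groups. It measured 92.97, 75.3 and 96.3 FPKM in the controls and 55.8, 69.2 and 106 FPKM in the TPN rats. TPN 1 and TPN 2 lay below all controls and TPN 3 above them. The log2 fold change of Cideb was -0.24 (95% interval -0.84 to 0.36, limma adjusted p = 0.785).

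Cidec (FSP27), which drives the growth of single large droplets in fat cells and is known to be induced in fatty liver, measured 11.3, 21.3 and 13.6 FPKM in the controls. In the TPN rats it measured 16.7, 20.4 and 25.6 FPKM. Control 2 was the high control, and it alone kept the groups from separating, since both other controls lay below every TPN rat. The log2 fold change was 0.44 (SE 0.26, 95% interval -0.15 to 1.04, limma adjusted p = 0.564). With single rats left out it ran from 0.26 without control 1 (limma adjusted p = 0.999) to 0.69 without control 2 (limma adjusted p = 0.281). It was 0.29 without TPN 3.

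Cidea, a CIDE protein best known from brown fat, varied most between the TPN rats. The controls were close to each other at 3.05, 2.45 and 3.35 FPKM. The TPN rats measured 1.80, 9.27 and 6.22 FPKM, so that TPN 1 lay below all controls and TPN 2 and TPN 3 above them. The log2 fold change of Cidea was 0.59 (SE 0.45, 95% interval -0.48 to 1.66, limma adjusted p = 0.676). Single rats set its size, with 1.13 without TPN 1 (limma adjusted p = 0.0924) and 0.19 without TPN 2.

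The summed CIDE transcripts overlapped, at 106.6 ± 7.19 FPKM in control against 104 ± 32.1 in TPN (SD, n = 3), with a wider spread in TPN. Cideb made up 86.6%, 76.1% and 85.01% of that sum in the controls and 75.1%, 69.96% and 76.9% in the TPN rats. The ranges overlapped through control 2. Cidec made up 10.5%, 21.5% and 12.03% in the controls and 22.5%, 20.7% and 18.5% in the TPN rats, again with control 2 among the TPN values.

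Of the lipases, Pnpla2 measured 7.87, 11.97 and 8.80 FPKM in the controls and 9.72, 13.9 and 10.6 FPKM in the TPN rats. The ranges overlapped through control 2. The log2 fold change of Pnpla2 was 0.24 (95% interval -0.23 to 0.71, limma adjusted p = 0.712).

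Its inhibitor G0s2 was higher in all TPN rats. The values were 46.9, 31.3 and 40.8 FPKM in the controls and 69.6, 195 and 110 FPKM in the TPN rats. The lowest TPN rat, TPN 1, was above the highest control, and the TPN rats differed from each other more than the controls did. The means were 39.7 ± 7.88 and 125 ± 64.0 FPKM (SD, n = 3), 3.14-fold higher in TPN. The log2 fold change of G0s2 was 1.52 (SE 0.36, 95% interval 0.68 to 2.37, unadjusted p = 0.00337), and limma's adjusted p of 0.196 did not pass. It ran from 1.14 without TPN 2 to 1.87 without TPN 1 when single rats were left out.

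Mgll, which frees the last fatty acid from glycerol and also breaks down the endocannabinoid 2-arachidonoylglycerol, measured 23.6, 13.5 and 25.5 FPKM in the controls. In the TPN rats it measured 7.83, 13.95 and 15.9 FPKM. Control 2 lay among the TPN rats, and the other controls lay above all of them. The means were 20.9 ± 6.46 and 12.5 ± 4.20 FPKM (SD, n = 3). On the log2 scale the difference was -0.69 (SE 0.32, 95% interval -1.43 to 0.04, unadjusted p = 0.0602, limma adjusted p = 0.46).

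FPKM is scaled per length, so the inhibitor and its enzyme can be set side by side within a sample. The ratio of G0s2 to Pnpla2 was 5.97, 2.62 and 4.64 in the controls and 7.16, 14.02 and 10.3 in the TPN rats. No TPN rat overlapped a control, and the means were 4.41 ± 1.69 and 10.5 ± 3.44 (SD, n = 3). The ratio of Mgll to Pnpla2 was 2.99, 1.13 and 2.90 in the controls and 0.805, 1.00432 and 1.50 in the TPN rats, which overlapped through control 2. These ratios were formed with the members' values known and are given without a test. An exact permutation test on 3 against 3 rats cannot give a 2-sided p under 0.1.

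**Figure D2:**
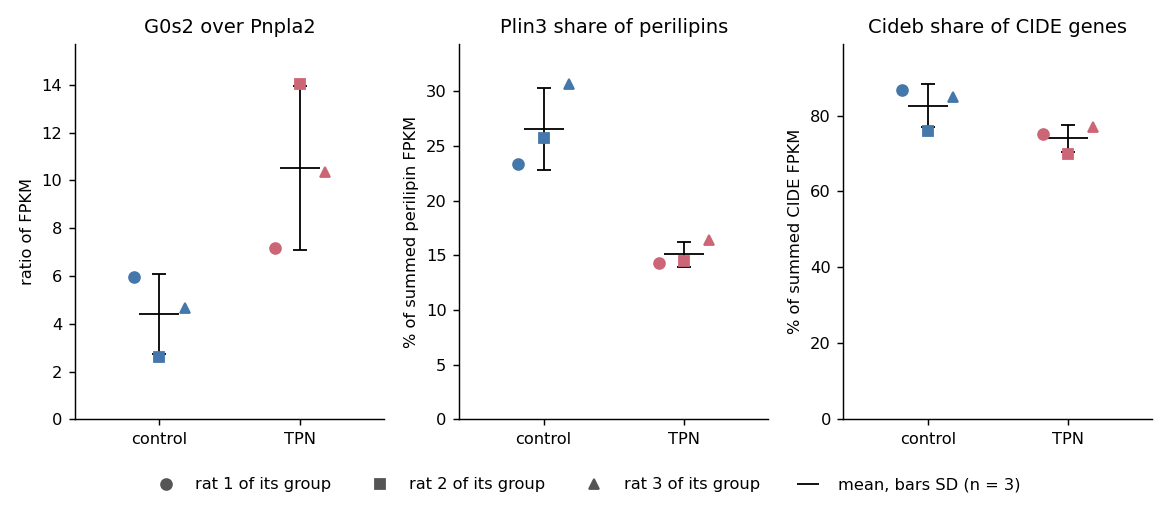
Within-sample ratio of G0s2 to Pnpla2 FPKM (left), Plin3 as a percent of the summed FPKM of Plin2 to Plin5 (middle) and Cideb as a percent of the summed FPKM of Cidea, Cideb and Cidec (right), for each control and TPN rat, with the group mean and SD. The ratio lies at 2.62 to 5.97 in control and 7.16 to 14.02 in TPN and the Plin3 share at 23.3% to 30.6% and 14.3% to 16.4%, while the Cideb share overlaps.

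In control liver the order of mean levels was Cideb, Plin2, G0s2, Mgll, Plin3, Cidec, Pnpla2, Cidea, Plin5 and Plin4. Ranges of neighbours overlapped for Cideb and Plin2, for Plin2 and G0s2, for Mgll and Plin3, for Plin3 and Cidec, and for Cidec and Pnpla2. In TPN liver G0s2 moved to the first place, followed by Cideb, Plin2, Cidec, Mgll, Pnpla2, Plin3, Cidea, Plin5 and Plin4. G0s2 was above Cideb in all 3 TPN rats, although the ranges of these genes overlapped across rats. Plin3 passed from the fifth to the seventh place, beside Pnpla2, from which its range did not separate.

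**Figure D3:**
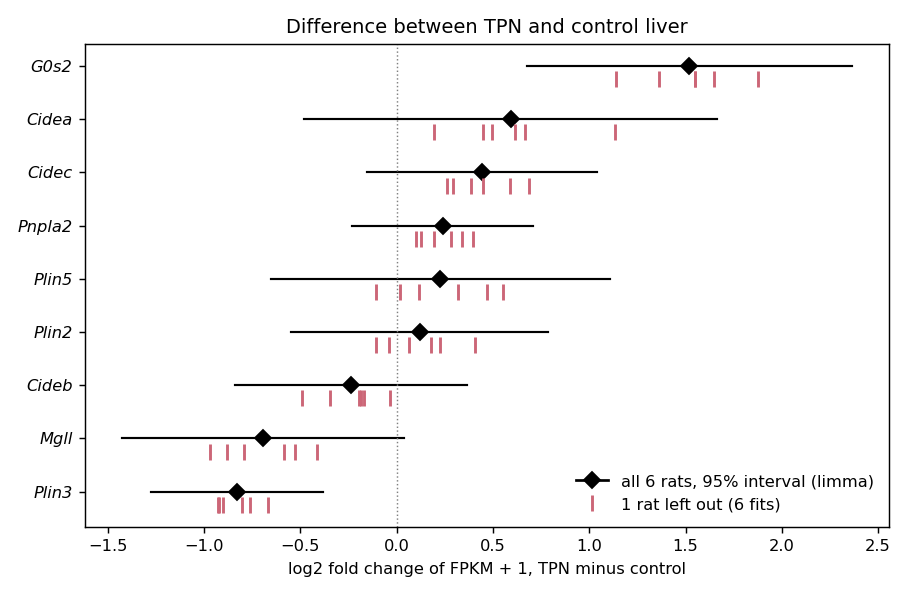
Log2 fold change of FPKM + 1, TPN minus control (horizontal axis), for the 9 tested members; diamonds and lines are limma's estimate and 95% interval from all 6 rats, and ticks below them the estimates with 1 rat left out. Only the intervals of G0s2 (0.68 to 2.37) and Plin3 (-1.28 to -0.39) stay on one side of 0, and the ticks of Plin2 and Plin5 fall on both sides.

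Of the 9 tested members 7 were lowest in TPN 1 among the TPN rats, with Plin2 and Plin3 the exceptions, and 6 were lowest in control 2 among the controls. Over all tested features, 49.3% were lowest in TPN 1 and 51.6% in control 2, so that low values in these rats were common beyond the members. Plin5, Cidea, Cideb, G0s2 and Mgll were lowest in both. Cidec and Pnpla2 were highest in control 2. Control 2 and TPN 1 also had the highest summed acute-phase transcripts of their groups. Lcn2, an acute-phase protein that binds iron-carrying siderophores, measured 3.68, 112 and 7.29 FPKM in control 1, 2 and 3 and 9127, 172 and 77.2 FPKM in TPN 1, 2 and 3. The 10 measured members of an acute-phase list summed to 18419 to 51682 FPKM in the controls, highest in control 2, and to 36225 to 101421 FPKM in the TPN rats, highest in TPN 1. In that list 9 of 10 genes were positive (median log2 fold change 1.23) and none passed. Values of 1 did not overlap, against 17.1% of all features. The part of this response in the members' values was not tested.

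Control 2 and TPN 1 were also left out together, a pair chosen with earlier results of these rats known. Since the overlap of Cidec, Pnpla2 and Mgll ran through control 2 and that of Cidea through TPN 1, the separation of these members without the pair follows from that choice and supports nothing. Then 6 of the 9 members did not overlap, where 47.3% of all features did not with so few rats. Cidea, Cidec, G0s2 and Pnpla2 were higher in TPN, and Mgll and Plin3 lower. The log2 fold changes became 1.72 for G0s2, 1.04 for Cidea, 0.83 for Cidec, 0.50 for Pnpla2, -0.68 for Mgll and -1.02 for Plin3. All 6 reached an unadjusted p under 0.05, which 15.2% of features did, and none passed after adjustment, which 1.07% of features did (limma adjusted p = 0.0672 for G0s2, 0.114 for Plin3, 0.116 for Cidea and 0.146 for Cidec). Without control 2 alone, 5 members did not overlap, where 32.9% of features did not. With rats weighted by their fit to the group (limma's arrayWeights, weights from 0.375 for TPN 3 to 2.28 for TPN 2), 2 members passed, where 2.63% of features did: G0s2 at 1.89 (log2, limma adjusted p = 0.0326) and Plin3 at -0.96 (limma adjusted p = 0.0391).

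Across the 6 rats, Pearson correlations of log2(FPKM + 1) between members, 36 pairs, were highest for Cideb with Mgll (0.83), Cidea with G0s2 (0.82), Plin5 with Cidea (0.78) and Cidec with Pnpla2 (0.78). They were lowest for Plin3 with G0s2 (-0.82), Cidec (-0.79) and Pnpla2 (-0.72). The points share their libraries and the difference between groups, and the values are descriptions. Plin3 had the smallest p of the members. The 5 named features averaging 5 FPKM or more whose pattern over the 6 rats was most like that of Plin3 were Fam241b (r = 0.997), RGD1561777 (0.986), Slc30a10 (0.984), Akr1b7 (0.98) and Arhgef19 (0.98). Fam241b measured 16.7, 12.05 and 12.6 FPKM in the controls and 9.37, 6.96 and 7.95 FPKM in the TPN rats. With 6 points, high correlations arise easily among this many features.

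The other lipases and cofactors, 13 measured and tested, had a median log2 fold change of -0.11, with 3 positive and 10 negative. None passed. Values did not overlap for 1 higher and 2 lower, against 8.02% and 9.09% of all features. Abhd5 (CGI-58), the protein that activates Pnpla2 and is displaced from it by perilipin binding, was the one higher. It measured 18.1, 20.4 and 15.9 FPKM in the controls and 36.03, 20.7 and 26.96 FPKM in the TPN rats (log2 fold change 0.57, limma adjusted p = 0.393). TPN 2 lay only just above the highest control. Lipc, the hepatic lipase that acts on lipoproteins in the sinusoid, measured 207, 91.2 and 171 FPKM in the controls and 18.2, 69.4 and 55.4 FPKM in the TPN rats (log2 fold change -1.81, limma adjusted p = 0.303). Lipa, the lysosomal acid lipase, averaged 106 ± 19.9 FPKM in control against 78.7 ± 6.81 in TPN (SD, n = 3; limma adjusted p = 0.48). Pnpla3, a relative of Pnpla2 that is driven by lipogenic factors, measured 2.20, 0.355 and 4.47 FPKM in the controls and 0.0126, 0.901 and 0.0893 FPKM in the TPN rats, with overlap (limma adjusted p = 0.459). Lipe, the hormone-sensitive lipase that takes the second step between Pnpla2 and Mgll, is named because of that place and measured 2.50 ± 0.952 and 2.27 ± 0.548 FPKM (limma adjusted p = 0.938).

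Genes of droplet formation and surface, 18 measured and 16 tested, had a median of -0.07, with 5 positive and 11 negative, and none passed. Overlap was absent for 1 higher and 2 lower, against shares of 8.02% and 9.09% over all features. Hilpda, a small droplet protein that, like G0s2, inhibits Pnpla2, was higher in all TPN rats. It measured 3.32, 4.65 and 3.39 FPKM in the controls and 12.6, 9.73 and 6.37 FPKM in the TPN rats. Its log2 fold change was 1.11 (SE 0.24, unadjusted p = 0.00185, limma adjusted p = 0.161). Unlike G0s2, which was lowest in TPN 1, Hilpda was highest in TPN 1. Acsl3, an acyl-CoA synthetase of nascent droplets, averaged 9.91 ± 0.541 FPKM in control against 5.78 ± 1.16 in TPN (SD, n = 3; log2 fold change -0.70, limma adjusted p = 0.195) without overlap. Tmem159 (promethin), the partner of seipin at droplet birth, measured 2.42 ± 0.211 and 1.58 ± 0.203 FPKM (limma adjusted p = 0.338), also lower without overlap. Mettl7b, a droplet-associated methyltransferase, ranged from 11.8 to 116 FPKM in control and from 0.712 to 24.7 in TPN (limma adjusted p = 0.514). Plin1 and Fitm1, genes of droplets in fat and muscle, were listed at 0 in all 6 samples.

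Of 10 measured regulators of these genes, 9 were tested, 6 positive and 3 negative (median 0.09), and none passed. The groups did not overlap for 1 higher gene (Ppargc1a) and 1 lower gene (Creb3l3), against shares of 8.02% and 9.09% over all features. Ppargc1a, a coactivator of PPAR-alpha that rises in fasting, measured 1.96, 1.92 and 1.35 FPKM in the controls and 2.12, 4.16 and 2.79 FPKM in the TPN rats (log2 fold change 0.53, limma adjusted p = 0.399). Foxo1, a factor that insulin restrains, measured 4.58 ± 0.432 and 6.80 ± 2.35 FPKM (SD, n = 3; limma adjusted p = 0.532). Creb3l3, a liver factor of fasting, measured 189 ± 13.4 FPKM in control and 152 ± 8.06 in TPN without overlap (limma adjusted p = 0.543). Ppard measured 1.74 ± 0.498 and 2.17 ± 0.857 FPKM (limma adjusted p = 0.823). Ppara itself, named for its role, measured 15.2 ± 5.20 and 14.5 ± 3.08 FPKM (limma adjusted p = 0.974), and Pparg lay under the filter at 0.801 ± 0.0878 and 0.964 ± 0.361 FPKM.

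PPAR-alpha targets outside droplets, 17 measured and tested, had a median of -0.04, with 7 positive and 10 negative. None passed. Values did not overlap for 3 higher and 2 lower, against 8.02% and 9.09% of all features. Vnn1, a pantetheinase, measured 8.79, 11.1 and 11.5 FPKM in the controls and 17.3, 24.1 and 25.9 FPKM in the TPN rats (log2 fold change 1.02, limma adjusted p = 0.124). Cyp4a2, a fatty acid omega-hydroxylase with close relatives that can share reads, measured 69.6 ± 43.01 and 305 ± 166 FPKM (SD, n = 3; limma adjusted p = 0.206). Fabp1, the liver fatty acid binding protein, measured 3931 ± 709 and 2421 ± 580 FPKM (limma adjusted p = 0.414), and the hormone Fgf21 ranged from 2.03 to 3.78 in control and from 5.03 to 152 FPKM in TPN (limma adjusted p = 0.382). The list held genes on both sides, as the droplet genes did.

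**Figure D4:**
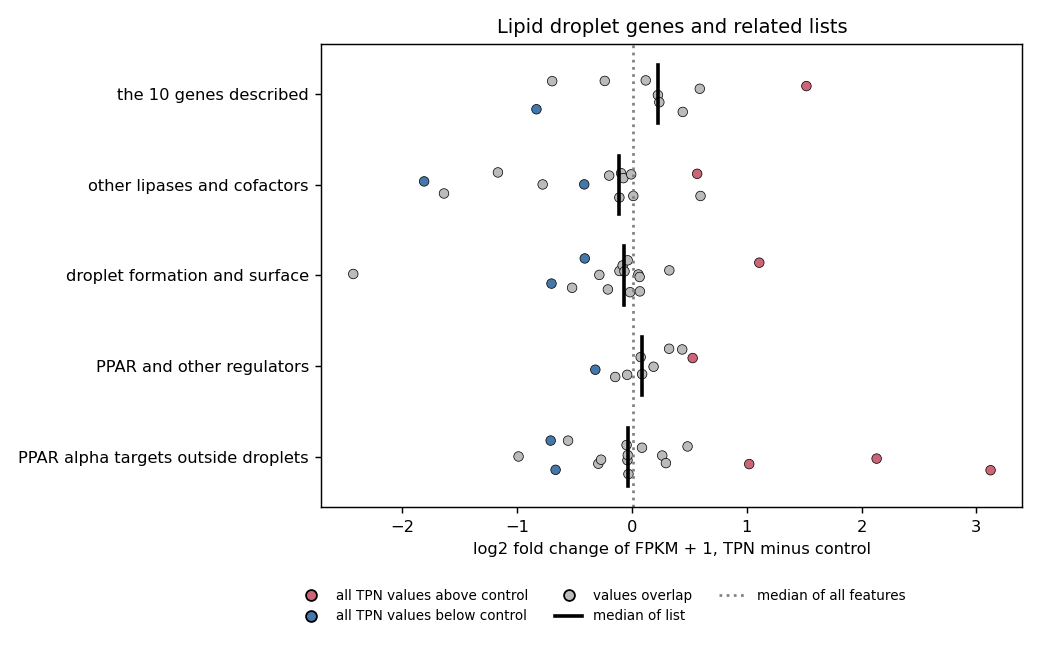
Log2 fold change of FPKM + 1, TPN minus control (horizontal axis), for the 9 tested members and for 4 related lists (rows; vertical scatter only separates points); color shows whether the 3 TPN values all lie above or below the 3 control values, black lines are list medians and the dotted line is the median of all features (0.01). List medians lie between -0.11 and 0.23, and each list has genes on both sides.

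The labelled tissue was met by its markers, with all 8 hepatocyte markers measured and summing to 47410 to 67174 FPKM in control and 28122 to 52116 in TPN (median log2 fold change -0.22, none passed). Most of these sums was Alb, at 32506 to 48388 FPKM in control and 12828 to 39337 in TPN. Tat (log2 fold change 0.85), Apoa1 (0.17) and Serpina1 (0.12) were positive and the other 5 negative. Only Ttr did not overlap, lower in TPN (log2 fold change -1.44, limma adjusted p = 0.242), where 17.1% of all features did not. Fat tissue was checked because Plin4, Cidea and Cidec are also fat genes. Of 8 adipocyte markers Adipoq, Plin1, Lep and Adrb3 were listed at 0 in all samples, and the list summed to 16.7 to 31.5 FPKM in control and 21.9 to 31.3 in TPN. These sums came almost wholly from 3 markers. They were Cfd (means of 12.5 FPKM in control and 16.1 in TPN), Fabp4 (6.70 and 8.51) and Lipe (2.50 and 2.27). Of these 3, the only ones tested, 2 were positive and 1 negative (median 0.13), and none passed. Stellate cells, which store retinyl esters in droplets of their own, had 10 markers that summed to 121.5 to 193 FPKM in control and 95.8 to 121.4 in TPN. Col3a1 alone was the largest part of these sums, at 79.5 to 132 FPKM in control and 54.1 to 76.9 in TPN. Of the 8 tested 5 were negative (median -0.23) and none passed. The 3 positive ones were Hgf (log2 fold change 0.50), Dcn (0.41) and Rgs5 (0.25). Lrat, the enzyme that makes retinyl esters, measured 15.5, 11.5 and 13.7 FPKM in the controls and 2.68, 5.24 and 5.86 FPKM in the TPN rats (limma adjusted p = 0.0882). The 7 measured Kupffer cell markers summed to 295 to 438 FPKM in control and 393 to 629 in TPN, with 6 positive (median 0.57) and none passed. Endothelial markers summed to 53.2 to 84.6 and 62.01 to 79.8 FPKM, with 2 of 5 positive (median -0.06). The 5 cholangiocyte markers summed to 10.6 to 13.9 and 6.34 to 8.10 FPKM, with Epcam the largest part. The 2 tested, Epcam and Krt19, were negative (median -0.59). Krt7, Sox9 and Spp1 lay under the filter, at means of 0.241, 0.176 and 0.864 FPKM in control and 0.0954, 0.159 and 1.01 in TPN. No endothelial or cholangiocyte marker passed. Erythroid markers summed to 2125 to 2420 FPKM in control and 231 to 578 in TPN, all 6 tested were negative (median -2.06), and 4 passed, all lower: Hba-a1, Hba-a2, Hbb and Alas2. The part of the hepatocyte, adipocyte, stellate, Kupffer, cholangiocyte and erythroid markers in the members' values was not tested.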

How the data were processed

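Liver RNA-seq of 3 control and 3 TPN rats was compared, with groups taken from the sample titles. RNA was extracted with TRIzol and sequenced by standard Illumina methods, per the labels' protocols. The submitters' processing notes name Bowtie 0.12.2, Cufflinks and build Rnor_6.0, with no role or order. The authors deposited 1 table of FPKM, which holds no counts. Ratios of values under 0.3 FPKM between samples put at most 0.853% in any bin (0.01 wide, log2). Whole reads were thus not recoverable, and with depth unknown no counting interval is given. Handling of reads shared by similar genes is not given in the sources used here.

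Features averaging 1 FPKM or more were tested on log2(FPKM + 1) with limma 3.58.1 in R 4.3.3 (with statmod 1.5.0), using trend and robust moderation, no term besides group, 2-sided p-values and adjustment by Benjamini-Hochberg over all features at 0.05. This scale understates changes of low genes. Folds are ratios of mean FPKM. The labels name separate rats. Members and lists were chosen with earlier results of these data known. Of 134 list entries, 127 matched by symbol, 1 by an older symbol or Ensembl identifier, and 6 had no match. Named genes were all members, the 4 genes with the smallest p of each related list (the rule also covered the marker and acute-phase lists, given here mainly by sums and counts), any gene of a list past the threshold, and the 5 features most like the member with the smallest p. Lipe, Ppara, Pparg, Lcn2 and Lrat and the genes at 0 were named for their roles. Other hepatocyte, adipocyte, stellate and cholangiocyte genes were named for their part in a sum, their sign, their lack of overlap or their place under the filter. Alternatives were pseudocounts of 0.1 and 0.01, other filters, scalings, moderation, weights, a replicate block, summed rows and rats left out. Figures were drawn with matplotlib 3.10.9.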

Additional observations from a re-analysis of the deposited data

How the results depend on the processing

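The direction of 7 of the 9 tested members held in every alternative run, and of 169 recomputed fold changes 163 kept both direction and side of the threshold. With 1 rat left out, Plin2 ran from -0.11 to 0.41 and Plin5 from -0.11 to 0.55. The exceptions were Plin2, at -0.11 without control 3, -0.04 without TPN 1 and -0.10 without control 2 and TPN 1, Plin5, at -0.11 without control 2, and G0s2 (1.89) and Plin3 (-0.96), which passed with arrayWeights. Limma's adjusted p ran from 0.0326 to 0.525 for G0s2 and from 0.0391 to 0.671 for Plin3 over the alternatives. The count of members past the threshold was 0 in all of them but arrayWeights (2), and stayed at 0 with any 1 rat left out. Members without overlap numbered 2 to 5 with 1 rat left out, with 5 without control 2, and 6 without control 2 and TPN 1. The share over all features rose too, from 17.1% with all 6 rats to 32.9% without control 2 and 47.3% without both. The count over all features, 28, was 18 and 5 with pseudocounts of 0.1 and 0.01, 0 with no filter, 6 with a mean of at least 5 FPKM, 0 with median-ratio scaling, 0 with quantile normalisation, 36 with scaling to a fixed total (TPM), 8 without trend or robust moderation, 299 with arrayWeights, 121 without control 2 and TPN 1, and 0 to 46 with 1 rat left out. With no filter, median-ratio scaling and quantile normalisation, 1898, 1578 and 1591 features had an unadjusted p under 0.05. The count over the other lists, 4, was 1 and 0 with the smaller pseudocounts, 0 with no filter, 1 with a mean of at least 5 FPKM, 0 with median-ratio scaling or quantile normalisation, 4 with scaling to a fixed total (TPM), 1 without trend or robust moderation, 9 with arrayWeights, 15 without control 2 and TPN 1, and 0 to 4 with 1 rat left out. The replicate block gave 58 features and no member (G0s2 and Plin3 at limma adjusted p of 0.278 and 0.153). Deviations of same-numbered rats from their group means correlated at -0.21, -0.14 and 0.32. Over all pairs of a control with a TPN rat the correlations ran from -0.35 to 0.42. With 3 rats per group the deviations depend on each other, so these values cannot decide whether the numbers pair the rats. With a mean of at least 5 FPKM Cidea and Plin5 were not tested, and Plin4 was tested only with no filter. The unknown depth limits what can be said of Plin4 and Plin5. No cause of these dependences was tested.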

Other observations

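Plin2 and Plin3 were also set against each other within each sample, a ratio chosen after their values were seen and given without a test. Plin2 over Plin3 was 3.22, 2.87 and 2.19 in control 1, 2 and 3 and 5.94, 5.67 and 4.93 in TPN 1, 2 and 3. The group means were 2.76 ± 0.521 and 5.51 ± 0.519 (SD, n = 3). The values did not overlap between the groups, as those of Plin3 alone did not.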
